A study of Homo sapiens with 10 samples.

Results

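The genes described here form 3 signalling sets, namely the chemokine CXCL12 with its receptors CXCR4 and ACKR3, the ligand KITLG with its receptor KIT, and the platelet-derived growth factors PDGFA and PDGFC with the receptors PDGFRA and PDGFRB. They are 9 of 27488 gene symbols in the deposited tables and were found by symbol, and all 9 were present in each of the 3 tables. Of the 9 genes, 5 encode receptors and 4 encode ligands.

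CXCR4 is a G protein-coupled receptor that guides migrating cells along CXCL12, and ACKR3 is an atypical receptor that binds and takes up the same chemokine and signals through arrestins. KIT, PDGFRA and PDGFRB are related receptor tyrosine kinases of class III, and each is activated when a dimeric ligand brings receptor chains together. CXCR4 and KIT are used together as surface markers of definitive endoderm, KIT also marks germ cells and blood progenitors, PDGFRA is a surface marker of early mesoderm, and PDGFRB is known for its place on mesenchymal cells and pericytes.

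All cells came from H9, an established human embryonic stem cell (hESC) line, carrying an LTR7-GFP reporter in which the promoter element of a retrovirus active in pluripotent cells drives a fluorescent protein. The 5 groups were untreated primed hESCs kept in mTeSR on Matrigel, primed hESCs given 10 mM crotonate for 12 days, untreated human extended pluripotent stem (hEPS) cells converted from the reporter hESCs in LCDM medium on inactivated mouse feeder cells, hEPS cells given the same crotonate treatment, and cells labelled endodermal. The last had been grown from the reporter line in E8 medium with BMP4 and Activin A, and with the compound CHIR99021 at the start only. Crotonate is the salt of a short-chain fatty acid from which cells make crotonyl-CoA, the donor of protein crotonylation. The labels list 10 samples, 2 per group, whereas the tables hold 1 value per gene and group in FPKM (a level of mapped fragments corrected for transcript length and library depth). No SD, test or p-value was therefore possible, and every change below is a difference between 2 values with no replicate check.

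Changes were taken within a table as differences of log2(FPKM + 1), crotonate minus untreated, a scale on which the changes of scarce transcripts come out too small. The words higher and lower are kept for genes whose difference reached 1, a fold of 2, and whose level was 1 FPKM or more in either column. These genes were called, and 13.9% of 13210 measured genes were called higher and 12.7% lower in primed hESCs, and 8.42% of 14161 were called higher and 3.02% lower in hEPS cells. The columns summed to between 370410 and 611809 FPKM, and the ratios of library size read from the steps of low values were 0.883 for crotonate against untreated primed hESCs, 0.758 for crotonate against untreated hEPS cells and 1.07 for the labelled endodermal against the primed column. Read totals are not stated, but these steps gave the smallest whole number of reads that could lie behind a value. The 95% exact intervals printed for ratios rest on those numbers, are therefore at their widest, and cover counting error only.

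The labels of the groups were checked against marker lists (13 definitive endoderm, 15 lateral plate and cardiac mesoderm, 18 mesenchyme and fibroblast and 12 pluripotent cell markers, of which 11 were in the primed and labelled endodermal tables). The library labelled endodermal did not show most of the defining genes of definitive endoderm, with FOXA2 and GSC listed at 0, SOX17 at 0.0721 FPKM and 2 of 13 markers at 1 FPKM or above. These 2 were GATA6 at 3.40 FPKM and FOXA3 at 2.44 FPKM, beside 0.0161 and 10.5 FPKM in untreated primed hESCs. In the library labelled endodermal the mesoderm gene HAND1 stood at 229 FPKM and the fibrillar collagen gene COL3A1 at 955 FPKM. Crotonate-treated primed hESCs had a summed mesenchyme level of 6646 FPKM against 357 FPKM untreated, a mesoderm level of 1085 against 28.6 FPKM and an endoderm level of 46.9 against 13.5 FPKM, while the pluripotency factor gene POU5F1 fell from 827 to 0.420 FPKM. Of these endoderm levels, GATA6 alone made up 26.4 FPKM treated and FOXA3 alone 10.5 FPKM untreated. The median of the endoderm list was 1.45 against 0.120 FPKM. Crotonate-treated hEPS cells had an endoderm level of 2589 against 182 FPKM, of which the secreted antagonist gene CER1 alone made up 1962.5 and 39.0 FPKM, and the median of the list was 55.2 against 9.72 FPKM. They had a mesoderm level of 52.9 against 51.5 FPKM and a mesenchyme level of 1335 against 729 FPKM, with POU5F1 at 261 against 461 FPKM. Of the measured pluripotent cell markers, 10 of 10 were called lower in primed hESCs, against 12.7% of all measured genes. In hEPS cells 2 of 11 were called lower, against 3.02%, and 8 were not called. The 1 called higher there was TDGF1, at 130 against 56.5 FPKM. Fewer cells of a type and less RNA per cell cannot be told apart in such bulk samples.

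**Figure D1:**
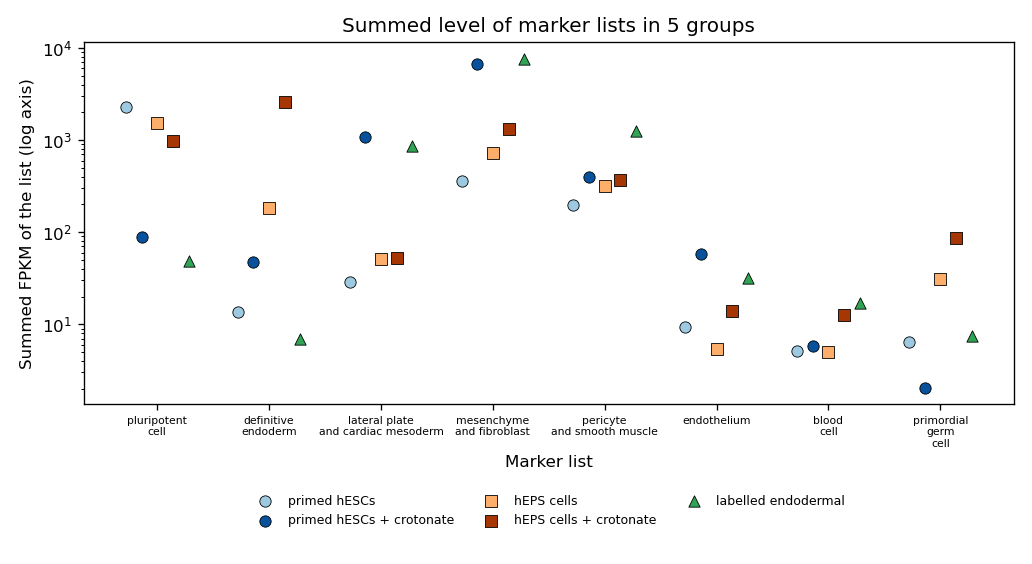
Summed level of 8 marker lists (log axis, FPKM) in the 5 groups, 1 point per group with no error since each group has 1 column. The definitive endoderm sum is highest in crotonate-treated hEPS cells at 2589 FPKM and lowest in the library labelled endodermal at 7.00 FPKM, while the mesenchyme sums of crotonate-treated primed hESCs and of the library labelled endodermal are 6646 and 7619 FPKM.

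The 9 genes lie on 6 chromosomes in hg38 (GENCODE 44). CXCR4 (chr2:136114349-136119177, minus strand) and ACKR3 (chr2:236567787-236582354, plus strand) are on chromosome 2, CXCL12 (chr10:44370165-44386493, minus) on chromosome 10 and KITLG (chr12:88492793-88580851, minus) on chromosome 12. PDGFRB (chr5:150113839-150155872, minus) and PDGFA (chr7:497258-520296, minus) are on chromosomes 5 and 7. PDGFRA (chr4:54229280-54298245, plus), KIT (chr4:54657267-54740783, plus) and PDGFC (chr4:156760454-156971799, minus) share chromosome 4, where 359 kb separate the end of PDGFRA from the start of KIT. The annotation places a readthrough gene on the strand of PDGFRA over 65993 bases, 3 genes on the opposite strand of PDGFC and 1 on that of KITLG, and since the use of strand in counting is not stated, reads of these partners may be included.

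Promoter sequence in RefSeq (GRCh38.p14, 250 bases before a start) matched 7 of the 9 genes at 13 starts. The AGATAA motif of GATA factors, sought on both strands, was in 0 of these 13 windows and in 9.17% of all 35116 promoters of that length, which says only that the letters are absent there. AGATAG, another GATA motif, was in 1 of 13 (5.66% of all), and TATAAA, the TATA box, in 2 of 13 (10.7% of all), those of CXCR4 and KITLG, both sought after the first motif had been counted. Shown is 1 window for each matched receptor gene, all of which were called in primed hESCs, so that the letters before a RefSeq start can be read beside the levels. RefSeq starts differ from the GENCODE gene bounds given above, and the windows of CXCR4, PDGFRA and KIT lie inside those bounds. Capitals mark TATAAA with its overlapping copy on the other strand in CXCR4 (chr2:136118150-136118399, minus strand, 68% GC) and AGATAG in the window of the second start of PDGFRA (chr4:54233710-54233959, plus strand, 64% GC). The PDGFRB (chr5:150155873-150156095, minus strand, 58.3% GC) and KIT (chr4:54657707-54657888, plus strand, 75.8% GC) sequences held none of the 3 motifs and were shortened to stop before an annotated exon.
CXCR4: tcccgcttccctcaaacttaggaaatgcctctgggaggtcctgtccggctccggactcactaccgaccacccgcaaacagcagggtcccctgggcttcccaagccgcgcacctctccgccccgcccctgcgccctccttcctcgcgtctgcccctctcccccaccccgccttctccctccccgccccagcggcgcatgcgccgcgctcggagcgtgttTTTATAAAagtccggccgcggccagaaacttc
PDGFRA: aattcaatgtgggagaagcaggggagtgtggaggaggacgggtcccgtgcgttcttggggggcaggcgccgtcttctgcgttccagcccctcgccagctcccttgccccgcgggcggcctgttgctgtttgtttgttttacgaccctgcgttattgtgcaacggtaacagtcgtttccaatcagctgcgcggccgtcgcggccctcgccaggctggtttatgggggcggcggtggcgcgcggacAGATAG
PDGFRB: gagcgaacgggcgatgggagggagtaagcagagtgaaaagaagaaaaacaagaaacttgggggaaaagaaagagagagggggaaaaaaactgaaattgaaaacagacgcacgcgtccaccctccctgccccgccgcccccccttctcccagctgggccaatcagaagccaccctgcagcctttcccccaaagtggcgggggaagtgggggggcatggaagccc
KIT: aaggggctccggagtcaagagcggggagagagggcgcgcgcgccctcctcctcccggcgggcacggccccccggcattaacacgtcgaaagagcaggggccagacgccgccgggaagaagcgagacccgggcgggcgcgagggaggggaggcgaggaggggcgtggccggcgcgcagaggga

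Among the members, 5 were called higher in crotonate-treated primed hESCs (CXCR4, ACKR3, PDGFRA, PDGFRB and PDGFC), against 13.9% of all measured genes, and 2 were called lower (KIT and PDGFA), against 12.7%. In hEPS cells 3 were called higher (CXCR4, ACKR3 and PDGFC), against 8.42% of all genes, and 3 lower (CXCL12, KITLG and PDGFA), against 3.02%. The members had a median change of 1.69 in primed hESCs and of 0.74 in hEPS cells, beside medians of -0.08 and -0.09 over all measured genes. Of the 9, 4 had the same call in both states: both chemokine receptors and PDGFC were higher and PDGFA was lower. The members were not a random draw of genes, so these counts are a description.

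**Figure D2:**
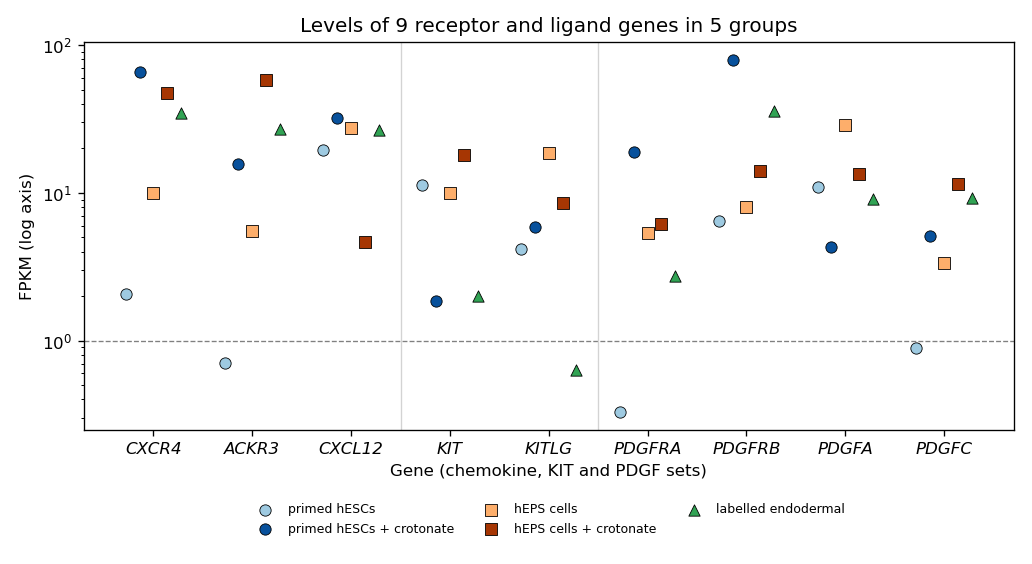
Level (FPKM, log axis) of each of the 9 genes in the 5 groups, 1 point per group with no error since each group has 1 column, and the dashed line at 1 FPKM. In untreated primed hESCs 3 genes, PDGFRA, PDGFC and ACKR3, lie under the line, and KITLG in the library labelled endodermal is the other value under it.

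CXCR4, the signalling receptor of CXCL12, stood at 2.08 and 65.4 FPKM in untreated and treated primed hESCs, at 10.0 and 47.4 FPKM in untreated and treated hEPS cells, and at 34.7 FPKM in the library labelled endodermal. As deposited, both crotonate-treated values lay above those of the other columns, and the untreated primed value was the lowest. The order of the treated hEPS and labelled endodermal values is uncertain, since their columns summed to 597545 and 373820 FPKM. The ratio of FPKM was 31.4 in primed hESCs (95% counting interval 26.2 to 38.0, from at least 122 and 3385 reads) and 4.74 in hEPS cells (4.33 to 5.18, from at least 627 and 2251 reads). The log2 changes were 4.43 and 2.14, and 110 measured genes in primed hESCs and 173 in hEPS cells rose further. CXCR4 passed from percentile 31.5 to 94.1 of the genes above 0 in primed hESCs and from 60.7 to 89.2 in hEPS cells.

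ACKR3, the scavenging receptor of the same ligand, stood at 0.707 and 15.7 FPKM in untreated and treated primed hESCs, at 5.56 and 57.7 FPKM in untreated and treated hEPS cells, and at 27.0 FPKM in the library labelled endodermal. On the scale of log2(FPKM + 1) its changes were 3.29 in primed hESCs and 3.16 in hEPS cells, a difference of -0.13 (hEPS minus primed). With 0.1 in place of the added 1 they were 4.29 and 3.35, so their near equality depends on that setting. The ratios were 22.2 (10.5 to 56.2, from at least 7 and 137 reads) and 10.4 (9.17 to 11.8, from at least 284 and 2235 reads). These read numbers are lower bounds, so the untreated primed value need not rest on as few as 7 reads. In hEPS cells only 29 measured genes rose further, against 261 in primed hESCs. The order of the receptors differed between the treated columns: CXCR4 was above ACKR3 in primed hESCs, at 65.4 against 15.7 FPKM, and below it in hEPS cells, at 47.4 against 57.7 FPKM.

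CXCL12, the ligand of both receptors, was at 19.6 and 31.9 FPKM in untreated and treated primed hESCs, at 27.4 and 4.69 FPKM in untreated and treated hEPS cells, and at 26.6 FPKM in the library labelled endodermal. In hEPS cells it fell by 2.32 on the log2 scale, a ratio of 0.171 (0.0790 to 0.332, from at least 77 and 10 reads), and 25 measured genes fell further. In primed hESCs its change of 0.68 (ratio 1.63, 1.52 to 1.75) was below the threshold. Thus ligand and receptors moved in opposite directions in hEPS cells, where the ligand passed from second highest to lowest of the 9 members while ACKR3 and CXCR4 became the first and second.

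KIT, the receptor for stem cell factor, was at 11.3 and 1.84 FPKM in untreated and treated primed hESCs, at 9.95 and 18.1 FPKM in untreated and treated hEPS cells, and at 2.02 FPKM in the library labelled endodermal. As deposited, the treated primed value and that of the library labelled endodermal were the lowest, and the treated hEPS value was the highest. The hEPS columns have larger sums than the primed columns, so the order of the treated hEPS and untreated primed values is uncertain. In primed hESCs KIT fell by 2.11 on the log2 scale, a ratio of 0.163 (0.144 to 0.185, from at least 1921 and 277 reads), with 327 measured genes falling further. In hEPS cells the change was 0.81, a ratio of 1.82 (1.62 to 2.05), and was not called.

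KITLG, which encodes stem cell factor as a membrane-bound or shed ligand of KIT, was at 4.16 and 5.91 FPKM in untreated and treated primed hESCs, at 18.7 and 8.57 FPKM in untreated and treated hEPS cells, and at 0.633 FPKM in the library labelled endodermal. The last value was the only one under 1 FPKM, from at least 121 reads. In hEPS cells KITLG fell by 1.04 on the log2 scale, a ratio of 0.458 (0.342 to 0.608, from at least 193 and 67 reads), close to the threshold, and after centring the columns on the median change it was -0.95 and no longer called. In primed hESCs its change was 0.42, a ratio of 1.42 (1.29 to 1.57). Receptor and ligand of this set therefore had changes of opposite sign within each state: KIT was lower and KITLG uncalled in primed hESCs, and KITLG was lower and KIT uncalled in hEPS cells.

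PDGFRA, the receptor chain that binds PDGFA and PDGFC, was at 0.327 and 19.0 FPKM in untreated and treated primed hESCs, at 5.39 and 6.15 FPKM in untreated and treated hEPS cells, and at 2.74 FPKM in the library labelled endodermal. Untreated primed hESCs had the lowest value of any member in any column and treated primed hESCs the highest value of this gene. The ratio in primed hESCs was 58.3 (45.5 to 75.9, from at least 64 and 3293 reads) and the log2 change 3.92, which became 5.49 with a pseudocount of 0.1. In hEPS cells the ratio was 1.14 (0.976 to 1.33), an interval that includes no change, and the log2 change of 0.16 was not called.

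PDGFRB, the receptor chain bound by PDGFB and PDGFD, was at 6.44 and 79.3 FPKM in untreated and treated primed hESCs, at 8.00 and 14.1 FPKM in untreated and treated hEPS cells, and at 36.0 FPKM in the library labelled endodermal. It was the most abundant member in treated primed hESCs, at percentile 95.4 of genes above 0, and also in the library labelled endodermal. The ratio was 12.3 in primed hESCs (11.6 to 13.1, from at least 1213 and 13180 reads), a log2 change of 3.43. In hEPS cells it was 1.76 (1.59 to 1.95), with a log2 change of 0.74, below the threshold. Both receptor chains thus rose in primed hESCs and neither was called in hEPS cells, and the changes differed by -3.76 for PDGFRA and -2.69 for PDGFRB (hEPS minus primed), differences that 1 value per group does not allow to be tested.

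PDGFA, a ligand of PDGFRA secreted after cleavage by proprotein convertases, was at 11.0 and 4.31 FPKM in untreated and treated primed hESCs, at 28.7 and 13.4 FPKM in untreated and treated hEPS cells, and at 9.15 FPKM in the library labelled endodermal. The changes were of similar size, -1.17 and -1.05 on the log2 scale, both called lower, with ratios of 0.393 (0.347 to 0.444) and 0.465 (0.416 to 0.519). In hEPS cells the value after centring on the median change was -0.96 and was no longer called. PDGFC, the other ligand, which is latent until its CUB domain is cut off, was at 0.888 and 5.10 FPKM in primed hESCs, at 3.37 and 11.5 FPKM in hEPS cells and at 9.21 FPKM in the library labelled endodermal. It rose by 1.69 and 1.51, with ratios of 5.74 (4.56 to 7.30, from at least 88 and 446 reads) and 3.40 (2.72 to 4.28, from at least 109 and 281 reads). The 2 ligands of PDGFRA therefore moved in opposite directions in both states, and PDGFC went from below PDGFA to above it in primed hESCs, at 5.10 against 4.31 FPKM, but remained below it in hEPS cells, at 11.5 against 13.4 FPKM.

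**Figure D3:**
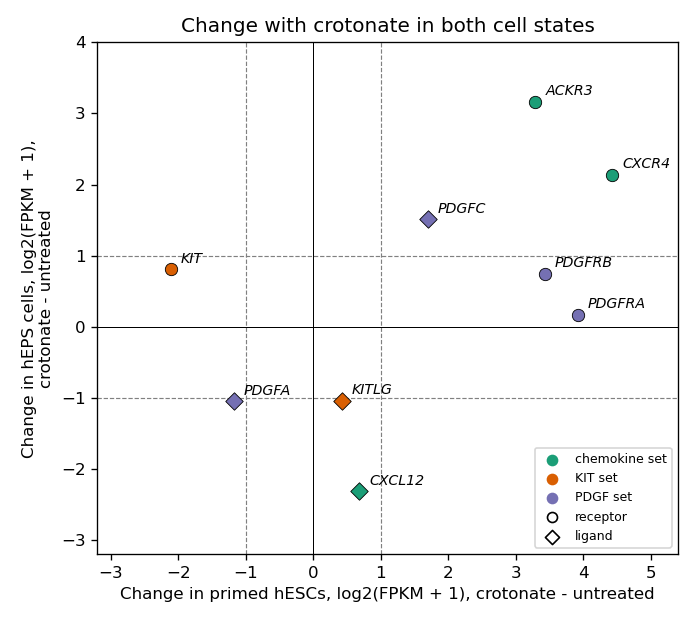
Change with crotonate of each of the 9 genes in primed hESCs (horizontal) against that in hEPS cells (vertical), both as differences of log2(FPKM + 1), with dashed lines at the calling threshold of 1 in each direction. ACKR3, CXCR4 and PDGFC lie beyond the threshold upwards in both states and PDGFA downwards in both, while CXCL12, KIT and KITLG have opposite signs in the 2 states.

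Beside these member values, the cell type markers moved as well. In primed hESCs, where CXCR4 and both PDGF receptors rose, 15 of 17 measured mesenchyme markers, 12 of 12 mesoderm markers and 7 of 9 pericyte and smooth muscle markers were called higher, with 0, 0 and 1 called lower. Of the endoderm markers there, 6 of 9 were called higher and 1 lower. Over all measured genes in primed hESCs, 13.9% were called higher and 12.7% lower. Only 2 of the 13 endoderm and 2 of the 15 mesoderm markers reached 1 FPKM in untreated primed hESCs. Most of these genes were thus measured only through the treated column, where little but a rise can be called. Of the 18 mesenchyme markers, 10 reached 1 FPKM in untreated and 17 in treated primed hESCs. The 2 endoderm markers at 1 FPKM or above untreated, CER1 and FOXA3, fell from 1.59 to 0.342 and from 10.5 to 2.82 FPKM. In hEPS cells 9 of 11 measured endoderm markers were called higher and 0 lower, with SOX17 at 191 against 29.2 FPKM and FOXA2 at 60.3 against 18.7 FPKM. Over all measured genes in hEPS cells, 8.42% were called higher and 3.02% lower.

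The mesenchyme markers of hEPS cells moved too, with 6 of 14 called higher and 0 lower, beside 8.42% and 3.02% of all measured genes. COL1A1 rose from 34.6 to 244 FPKM and COL5A2 from 4.60 to 107.7 FPKM, whereas COL3A1 was at 2.70 and 1.39 FPKM and LUM at 0.0854 and 0.275 FPKM. Of the pericyte and smooth muscle markers 4 of 9 were called higher and 0 lower in hEPS cells, and of the mesoderm markers 0 of 7 were called.

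Blood, endothelial and germ cells can also carry CXCR4 or KIT. The blood list summed to 5.13 and 5.79 FPKM in untreated and treated primed hESCs and to 5.00 and 12.7 FPKM in hEPS cells, with the pan-leukocyte gene PTPRC listed at 0 in 4 of the 5 columns and at 0.0205 FPKM in untreated hEPS cells. The endothelium list summed to 9.29 and 57.7 FPKM in primed hESCs, of which TEK alone made up 7.55 and 52.8 FPKM, and to 5.36 and 14.0 FPKM in hEPS cells, while the junction gene CDH5 was at 0.698 FPKM or below in every column. The primordial germ cell list summed to 6.46 and 2.06 FPKM in primed hESCs and to 31.2 and 87.1 FPKM in hEPS cells, where PRDM1 alone made up 7.17 and 52.3 FPKM. Its median in hEPS cells was 1.49 and 0.579 FPKM, 2 of its 4 measured genes were called higher and 1 lower, and NANOS3 and DPPA3 were at 0.222 FPKM or below in both columns. The paper states that hEPS cells were separated from the feeder cells by adherence before they were collected. The part of these cell types, and of any feeder cells left in hEPS samples, in the member changes was not tested.

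Of the other chemokine ligands, 42 in the list, 10 were measured in primed hESCs with 3 called higher and 4 lower (median change 0.38), and 16 in hEPS cells with 7 called higher and 0 lower (median change 0.91). For this and the following lists, the shares over all measured genes were 13.9% higher and 12.7% lower in primed hESCs. They were 8.42% higher and 3.02% lower in hEPS cells. Of the listed chemokine ligands, 10 reached 1 FPKM in untreated and 16 in treated hEPS cells. Those measured only through the treated column could be called higher but not lower. CCL2, a monocyte attractant, was called higher in both states, from 5.51 to 73.3 FPKM in primed hESCs and from 9.89 to 136 FPKM in hEPS cells. The neutrophil attractants CXCL1 and CXCL2 rose in hEPS cells from 0.104 to 5.66 and from 1.41 to 13.1 FPKM. In primed hESCs CCL26 fell from 4.91 to 0.551 and CXCL6 from 2.56 to 0.269 FPKM. Of 21 other chemokine receptors only 2 were measured in each state. CCR10 was measured in both and not called, at 1.88 and 1.66 FPKM in primed hESCs and 0.691 and 1.44 FPKM in hEPS cells. The atypical receptor ACKR1 rose in primed hESCs from 0.243 to 3.87 FPKM, and CCR7, the receptor that guides cells to lymph nodes, rose in hEPS cells from 0.904 to 9.77 FPKM. Both were under 1 FPKM untreated, so only a rise could be called. CXCR4 and ACKR3 were thus at higher levels in every column with crotonate than these other receptors.

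Of 27 genes for CXCR4 coupling and turnover, 26 were measured in primed hESCs with 9 called higher and 1 lower (median change 0.27), and 24 in hEPS cells with 5 higher and 0 lower (median change 0.088). RGS4, a protein that shortens G protein signals, rose in primed hESCs from 0.0662 to 32.9 FPKM, and RGS1, of the same family, was listed at 0 untreated and at 9.68 FPKM with crotonate. Neither was called in hEPS cells, where RGS4 was at 0.463 and RGS1 at 0.0617 FPKM with crotonate. RAC2, a small GTPase of the cytoskeleton, rose in both states, from 1.53 to 13.7 FPKM and from 4.42 to 23.5 FPKM. The arrestin gene ARRB1, whose product binds active CXCR4 and ACKR3, rose in hEPS cells from 10.2 to 67.6 FPKM, and CD74, a receptor of the cytokine MIF, from 4.37 to 27.4 FPKM.

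Of 7 relatives of the PDGF and KIT sets, 5 were measured in each state, with 2 called higher and 2 lower in primed hESCs (median change 0.022) and 1 higher and 0 lower in hEPS cells (median change 0.51). PDGFB, a ligand of both PDGF receptors, fell from 4.64 to 0.666 FPKM in primed hESCs, where the receptors rose, and rose from 2.29 to 11.2 FPKM in hEPS cells, where they were not called. CSF1 and FLT3LG, ligands of related receptors on blood cells, rose in primed hESCs from 3.45 to 13.9 and from 0.450 to 3.41 FPKM. All 38 listed genes of signalling downstream of KIT and the PDGF receptors were measured in both states, with 5 called higher and 5 lower in primed hESCs (median change -0.04) and 4 higher and 0 lower in hEPS cells (median change 0.20). The counts in primed hESCs are near the shares over all measured genes, 13.9% higher and 12.7% lower. In hEPS cells those shares were 8.42% and 3.02%. In primed hESCs the kinase gene SRC rose from 12.4 to 55.7 FPKM, SPRY2, which restrains receptor tyrosine kinase signals, rose from 18.3 to 100.4 FPKM, and the adaptor gene GRB7 fell from 12.0 to 0.407 FPKM. The adaptor genes SH2B3 and GAB2 rose in hEPS cells from 6.64 to 26.0 and from 6.79 to 15.7 FPKM, and SPRY4, of the SPRY2 family, rose from 23.9 to 59.1 FPKM.

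The list of ligand processing and co-receptor genes held 16 genes, all measured in both states, of which 7 were called higher and 1 lower in primed hESCs (median change 0.80) and 6 higher and 0 lower in hEPS cells (median change 0.33). NRP1 and NRP2, co-receptors best known for semaphorins and VEGF, rose in primed hESCs from 0.399 to 157 FPKM and from 13.1 to 206 FPKM. FURIN, a convertase that cuts the PDGFA precursor, rose from 19.3 to 250.3 FPKM in primed hESCs and from 37.3 to 118 FPKM in hEPS cells, while PDGFA itself fell in both. In hEPS cells the proteases MMP9, which in mice releases KITLG from cells, and PLAU rose from 0.196 to 17.4 and from 2.21 to 11.1 FPKM.

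**Figure D4:**
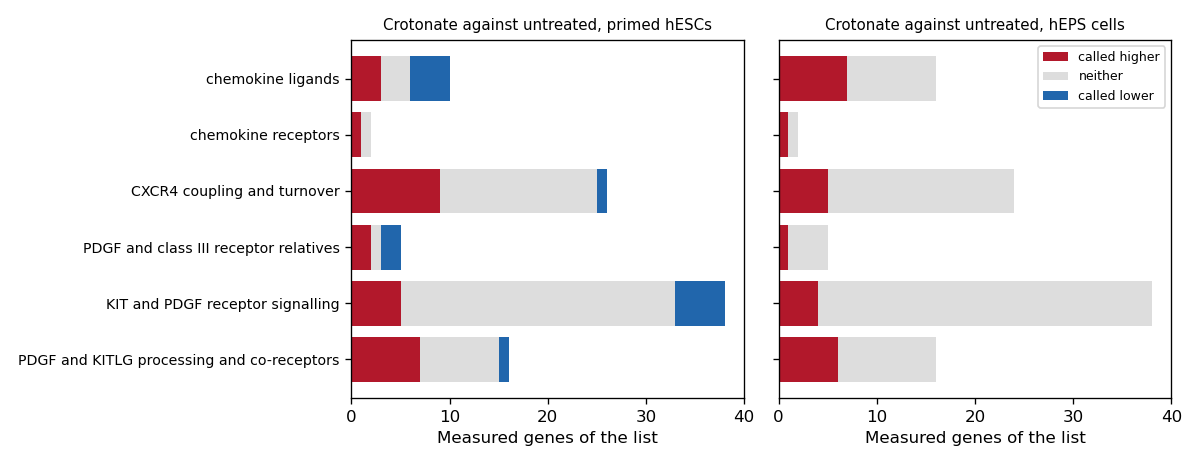
Number of measured genes called higher, called lower or neither in 6 lists related to the 9 genes, for crotonate against untreated primed hESCs and hEPS cells. Genes called lower appear in 5 of the 6 lists in primed hESCs and in 0 of the 6 in hEPS cells, where 3.02% of all measured genes were called lower.

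The genes whose levels followed each member most closely over the 5 columns were sought among 13549 genes, by the root mean square (RMS) difference of log2(FPKM + 1) after each gene was centred on its own mean. The columns come from separate tables, so the measure is a description. AUTS2 and GLI2 were closest to PDGFA, at RMS differences of 0.052 and 0.13, and AUTS2 stood at 22.2 and 9.11 FPKM in primed hESCs and 56.0 and 27.1 FPKM in hEPS cells. DDIT4L (0.071) and AP3B2 (0.13) were closest to KIT, PCDH17 (0.13) and SNAI1 (0.15) to PDGFRB, and GMPR (0.14) and IFITM3 (0.17) to PDGFC. FAM89A (0.18) and MRC2 (0.32) were closest to CXCR4, and CDKN1C (0.28) and IFI27L2 (0.29) to PDGFRA. The other members had less close matches: CLU (0.33) and RNF165 (0.36) for KITLG, TOMM34 (0.37) and ACAT2 (0.40) for CXCL12, and ECM1 and STMN2, both at 0.47, for ACKR3. No member was among the 2 closest genes of another.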

How the data were processed

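Bulk mRNA was sequenced from 5 groups of H9-derived cells, with 2 labelled samples per group. The submitters' processing notes name hg38, TopHat 1.3.2, Cufflinks 1.1.0, HTSeq 0.6.0, StringTie 1.3.0 and edgeR, and the methods add TMM normalization. The authors deposited 3 tables of FPKM values with 1 column per group, and the sources used here do not say how 2 samples became 1 column. RNA extraction is given as RNeasy in the methods and as TRIzol in the labels. Since the tables were kept apart, changes were computed within a table and no fold was formed between tables. A planned limma fit could not be run on 1 column per group, so the rule set for that case was used: a difference of at least 1 in log2(FPKM + 1) with at least 1 FPKM in one column. This pseudocount of 1 keeps low values from giving wide folds.

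Symbols turned into dates by spreadsheet software were dropped (28 in the hEPS table, 27 in each of the others), which left 26731 and 19198 genes. Of entries with 1 symbol the highest was kept. The hEPS table gave 4 listed genes under older symbols, matched through RefSeq synonyms. Reads were recovered as the smallest whole numbers whose ratio fitted the values of a gene. Of 1724 genes below 0.2 FPKM in both hEPS columns, 91.4% had ratios of whole numbers up to 12 times a common factor, and 81.3% of 879 did in primed hESCs. Members, lists and tests were chosen with earlier results of these data known. The text names all 9 members, up to 3 called genes with the largest change per list and comparison, the 2 genes closest to each called member, and markers needed to check the labels. The alternatives tried were quantile normalization, median centring, a pseudocount of 0.1, a ratio of FPKM over 1.5, no minimum level, and summed entries. The calling rule was tested on simulated data. Gene positions came from GENCODE 44, and scripts ran in Python 3.11.15 with pandas 2.3.3, scipy 1.17.1, numpy 2.4.6 and matplotlib 3.10.9.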

Additional observations from a re-analysis of the deposited data

Results flagged for a closer look

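CXCL12, KIT and KITLG had changes of opposite sign in the 2 cell states. For CXCL12 the log2 difference between treated and untreated cells was 0.68 in the primed state and -2.32 in hEPS cells, a difference of -3.00 (hEPS minus primed). For KIT it was -2.11 in the primed state and 0.81 in hEPS cells, a difference of 2.92. For KITLG it was 0.42 in the primed state and -1.04 in hEPS cells, a difference of -1.46. These differences were not tested, since each group has 1 value, and in each gene 1 of the 2 changes was below the calling threshold.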

How the results depend on the processing

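Of 108 values of member changes under 6 alternatives, 103 kept their direction and their side of the threshold and 0 reversed. Not all of these could have differed. Dropping the minimum level and summing entries left every member value and call as it was. The ratio of FPKM over 1.5 could change a call but not a direction. When columns were centred on the median change, KITLG at -0.95 and PDGFA at -0.96 in hEPS cells were no longer called, which left 1 member called lower there, and 81.6% of all calls in hEPS cells were higher, against 73.6% as deposited. With a ratio of FPKM over 1.5, CXCL12 in primed hESCs (0.68 on the log2 scale) and KIT (0.81) and PDGFRB (0.74) in hEPS cells became called, 5 members were called higher in hEPS cells, and the counts over all genes were 3336 higher and 3768 lower in primed hESCs and 2841 higher and 2566 lower in hEPS cells. With a pseudocount of 0.1, 787 genes were called lower in hEPS cells instead of 428, and the change of PDGFRA in primed hESCs was 5.49. No paired analysis was possible because each group has 1 column, and leaving out single replicates could not be run for the same reason. The smallest read numbers were those of the untreated primed value of ACKR3 (at least 7) and the treated hEPS value of CXCL12 (at least 10). A factor shared by the reads of a gene is lost in such numbers, so they are lower bounds and do not rank depth. In treated hEPS cells CXCL12 had at least 10 reads at 4.69 FPKM and PDGFRA at least 307 at 6.15 FPKM.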

Other observations

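Around PDGFRA and KIT on chromosome 4, the other protein-coding genes of the tables within 500 kb of either were CHIC2, GSX2 and KDR. KDR encodes the main VEGF receptor of endothelium, a receptor tyrosine kinase related to both but not of their class. It was at 23.3 and 91.6 FPKM in untreated and treated primed hESCs and at 6.15 and 11.5 FPKM in hEPS cells. CHIC2, on the other side of PDGFRA, was at 2.82 and 9.34 FPKM in primed hESCs and at 10.8 and 12.1 FPKM in hEPS cells. In primed hESCs the levels of CHIC2, PDGFRA and KDR were thus higher with crotonate, while KIT, which lies between PDGFRA and KDR, was lower. GSX2 was listed at 0 in 4 of the 5 columns.

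MIF, a cytokine that also binds CXCR4, ACKR3 and CD74, was at 615 and 714 FPKM in untreated and treated primed hESCs and at 349.9 FPKM in the library labelled endodermal, but at 1.85 and 0.882 FPKM in hEPS cells. It was singled out after its values were seen. The hEPS table has another gene set than the other tables, so no fold between them is given, and the part of annotation in this gap was not tested.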
